A study of Mus musculus with 16 samples.

Results

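Deletions of 11 to 99 bp whose joined ends shared 0 or 1 base were examined at a single hotspot of meiotic recombination in mouse testis DNA. The files listed 384 such deletions, counted once per library, among 5772 listed deletions of any length, and 355 of the 384 differed in position or length when all libraries were combined. In reads free of substitutions 83 of 2912 remained. They were chosen by deleted length and by microhomology, the run of bases common to both ends of a deletion. Microhomology was 0 bp in 238 of them and 1 bp in 146, so the ends of the latter still shared 1 base. They are called deletions without microhomology here.

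SPO11 cuts both DNA strands at hotspots in early meiosis, and the breaks are normally repaired by copying a homologous chromosome or the sister chromatid. ATM is a kinase activated by breaks, and it holds back further cutting by SPO11 near an existing break. A pair of breaks close together releases the fragment between them, and when the outer ends are joined a deletion remains. Classical non-homologous end joining can ligate ends that share no bases, whereas microhomology-mediated joining aligns short repeats first and loses the bases between them.

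Genomic DNA was taken from dissociated testes of C57BL/6 adults, 2 to 5 months old, and the labels give the cell type as spermatocytes. The groups were Atm-/- (no ATM), Atm+/- (1 functional copy), Atm+/+ and Spo11-/- (no meiotic breaks), with 4 libraries each, 1 for each of 4 overlapping amplicons made with 22 cycles of PCR. How many animals or genomes entered a PCR is not stated in what was available. The p-values therefore rest on differences between libraries of the same amplicon, which may be technical, and do not measure the spread between animals. The protocol used whole suspensions from mutant testes and part of those from wild-type testes. Libraries held between 2.92 and 5.33 times 1e6 reads, and 1 deletion in a library stood for 0.188 to 0.343 per 1e6 reads. Library names in the labels fall into 4 sets: the 4 Atm-/- libraries form the first, Atm+/+ amplicons 1 and 2 with Atm+/- amplicons 3 and 4 the second, and the remaining libraries, including those of Spo11-/-, the third and the fourth. The labels do not say what a set stands for, and genotype and set cannot be told apart for Atm-/-.

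The amplicons spanned chr1:33764688-33765556 (mm10), a stretch of 869 bp within Zfp451 (gene ID 98403, chr1:33761541-33815602), a protein-coding zinc finger gene. Exons and introns were not analysed here, and whether the files count positions from 0 or from 1 was not settled. The stretch printed first is where the ends of the Atm-/- deletions gathered. Its capitals mark the 20 bp that held the most left ends and the 20 bp that held the most right ends of Atm-/- deletions in reads without substitutions, windows that were therefore chosen from the values. The lines after it are the joined products of the deletions found in several Atm-/- amplicons in such reads, with 20 bases on each side: lower case is the left flank and capitals the right flank, so the junction lies at the change of case. Where 1 base is shared, it is the first capital.
chr1:33764969-33765089, end windows in capitals: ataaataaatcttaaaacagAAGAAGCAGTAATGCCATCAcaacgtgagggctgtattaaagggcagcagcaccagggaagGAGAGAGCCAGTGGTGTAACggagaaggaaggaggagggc
chr1:33765002-33765053, 52 bp deleted, 1 bp shared: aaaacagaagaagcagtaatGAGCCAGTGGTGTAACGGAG
chr1:33765000-33765064, 65 bp deleted, 0 bp shared: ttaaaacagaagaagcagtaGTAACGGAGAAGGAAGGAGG
chr1:33764999-33765052, 54 bp deleted, 1 bp shared: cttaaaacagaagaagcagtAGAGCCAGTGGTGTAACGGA
chr1:33765032-33765061, 30 bp deleted, 1 bp shared: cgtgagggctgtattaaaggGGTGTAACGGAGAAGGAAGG

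The first question was whether mice without ATM carry more of these deletions than the other genotypes. In reads without substitutions they did in every amplicon. Rates here and below are per 1e6 reads of the whole library, so the filter on substitutions acts on the deletions counted and not on the depth. The 4 Atm-/- libraries held 3.88, 4.23, 4.31 and 3.40 distinct deletions per 1e6 reads in amplicons 1 to 4, from 14, 13, 16 and 11 deletions. The Atm+/- libraries held 0.830, 0, 1.31 and 0.638 in the same order, and the Atm+/+ libraries 0.588, 1.36, 0 and 0. The Spo11-/- libraries held 0, 0.686, 0.223 and 1.12. No library of another genotype reached the lowest Atm-/- value. A library with a count of 0 allows up to 0.743 per 1e6 reads in Atm+/- amplicon 2, 0.893 and 0.922 in Atm+/+ amplicons 3 and 4, and 0.898 in Spo11-/- amplicon 1 (3 counts, counting error only).

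Averaged over amplicons, Atm-/- reached 3.95 ± 0.42 per 1e6 reads (SD, n = 4). The mean was 0.695 ± 0.543 for Atm+/-, 0.488 ± 0.646 for Atm+/+ and 0.508 ± 0.499 for Spo11-/-. Rates were tested on a log2 scale, with 0.5 added to each count, by exchanging genotypes within amplicons. The difference of mean log2 values between Atm-/- and the other 3 genotypes was 3.08, or 8.47-fold, and it ran from 2.76 to 3.43 in single amplicons. With at least 2 reads per deletion it was 4.49-fold, and no Atm+/- or Spo11-/- deletion then remained. The two-sided exact permutation test gave p = 0.00781, where 0.00391 is the smallest it can give. After Benjamini-Hochberg adjustment over the 26 tests made the adjusted p of this exact test was 0.0677, which misses 0.05. With all reads of a genotype pooled, 54 deletions gave 3.96 per 1e6 reads in Atm-/- (95% exact Poisson interval 2.97 to 5.17) and 29 gave 0.603 in the other 3 genotypes (0.404 to 0.866). The intervals cover counting error only, since PCR reads here carry no molecular identifiers.

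**Figure D1:**
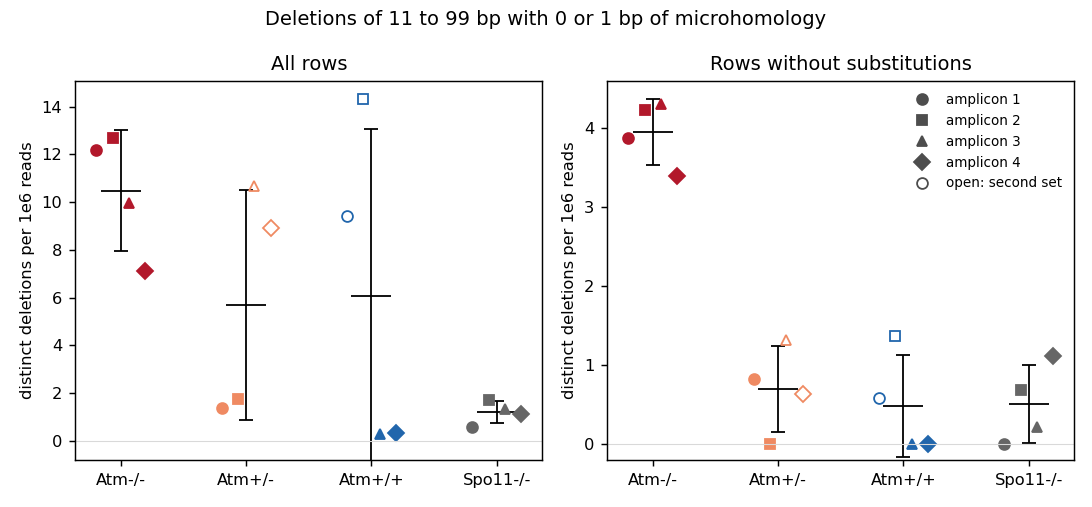
Distinct deletions of 11 to 99 bp with 0 or 1 bp of microhomology per 1e6 reads (y axis) by genotype (x axis), over all rows (left) and rows without substitutions (right). Each point is a library, its shape gives the amplicon, open points belong to the second set, and bars are mean ± SD (n = 4). On the right the Atm-/- libraries, at 3.40 to 4.31, lie above all others, and on the left 3 of the 4 open points lie within the Atm-/- range and Atm+/+ amplicon 2, at 14.3, lies above it.

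Against single genotypes the log2 difference in these reads was 2.78 for Atm+/-, 3.39 for Atm+/+ and 3.08 for Spo11-/-, which is 6.86-fold, 10.5-fold and 8.47-fold. The direction held in every alternative run, but the sizes moved. Without amplicon 2 the fold was 3.97 against Atm+/- and 15.9 against Atm+/+. With at least 2 reads per deletion it was 2.49 against Atm+/+ and 5.41 against Spo11-/-. Each of the 7 Spo11-/- deletions had 1 read without substitutions. The Spo11-/- libraries then held 0, and 5.41 rests on the 0.5 added to each count. Without the second set the fold was 12.1 against Atm+/- and 26.3 against Atm+/+. Only amplicons 1 and 2 of Atm+/- and 3 and 4 of Atm+/+ then remain. Atm+/- amplicon 2 and both Atm+/+ libraries held 0, so 26.3 rests on the added 0.5, and 12.1 does in part. Against Atm+/+ the fold was also 18.4 without ends near the middle and 6.59 with 0 bp of microhomology alone. Of the Atm+/+ libraries only amplicon 2 kept deletions once those ends were left out. Atm-/- was higher in 4 of 4 amplicons in each pair. It was also the highest in each amplicon for all listed deletions of any length per read, substitutions included. A two-sided exact test on 4 pairs cannot go below p = 0.125, the value found in all 3 pairs. Counted in reads, Atm-/- libraries had 4.71, 5.21, 5.38 and 4.01 reads per 1e6 with a deletion of this class and no substitution. Those of the other genotypes ran from 0 to 3.86, the highest being Atm+/+ amplicon 2. The groups did not overlap, but the gap between 4.01 (13 reads) and 3.86 (17 reads) is less than 1 read, which stands for 0.309 and 0.227. The log2 difference in reads from the other 3 genotypes was 3.04 (exact permutation p = 0.0117, adjusted p = 0.0762). This is 8.22-fold and became 14.9-fold without the second set.

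Over all rows, substitutions included, the groups overlapped, and each library of the second set lay above the lowest Atm-/- library. Atm-/- libraries had 12.2, 12.7, 9.96 and 7.10 distinct deletions per 1e6 reads, from 143 deletions. Atm+/- had 1.38, 1.73, 10.7 and 8.93, Atm+/+ 9.41, 14.3, 0.298 and 0.307, and Spo11-/- 0.599, 1.72, 1.34 and 1.12. The 4 libraries of the second set, which hold 2 amplicons each of Atm+/- and Atm+/+, overlapped with Atm-/-, and the 8 libraries of the third and the fourth set did not exceed 1.73. Here Atm-/- exceeded the rest by 2.18 on the log2 scale, or 4.55-fold, which missed 0.05 (exact permutation p = 0.0742, adjusted p = 0.241). Without the second set the difference was 3.30 (exact permutation p = 0.0123, the smallest that 81 assignments give), and without deletions that end near the amplicon's middle it was 2.75 (exact permutation p = 0.00391). In rows with at most 2 substitutions, a limit chosen after seeing the data, it was 2.5 (exact permutation p = 0.00391).

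The deletions of the second set differed from those of Atm-/- in where their ends lay and in how many substitutions accompanied them. In the second set 177 of 210 deletions over all rows had an end within 20 bp of the amplicon's middle (84.3%, 95% Clopper-Pearson interval 78.7 to 88.9), and 94.7% of their 856 reads belonged to such deletions. In Atm-/- this was so for 34 of 143 deletions (23.8%, 17.1 to 31.6), in the third set for 1 of 9 and in the fourth for 1 of 22. The median over deletions of the median number of substitutions per read was 8 in the second set and 1 in each of the others. In rows without substitutions the second set kept 19 deletions, 12 of them with an end in the middle, against 7 of 54 in Atm-/-. What part these ends and substitutions have in the counts was not tested.

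**Figure D2:**
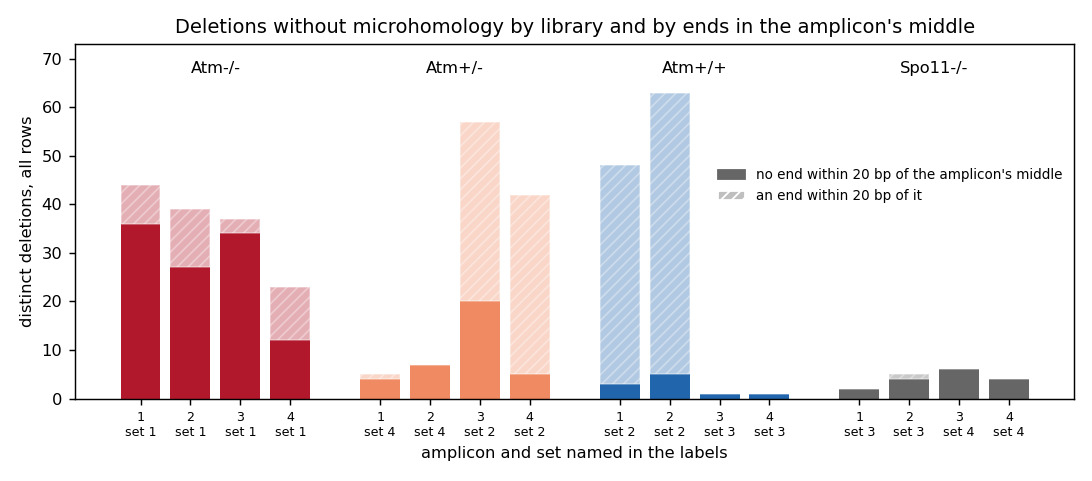
Distinct deletions over all rows (y axis, count) in each of the 16 libraries (x axis, amplicon and set, grouped by genotype), split into those with an end within 20 bp of the amplicon's middle (hatched) and those without (solid). Hatched deletions make up most of the bars in the second set, 58 of 63 in Atm+/+ amplicon 2 for example, and 34 of 143 in Atm-/-.

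The junctions printed next are the Atm+/+ pair with the most reads, both ending near the middle of their amplicon. They are shown to set them beside the Atm-/- junctions above.
chr1:33765043-33765073, 31 bp deleted, 1 bp shared: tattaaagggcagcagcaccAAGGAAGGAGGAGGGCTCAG
chr1:33764989-33765014, 26 bp deleted, 0 bp shared: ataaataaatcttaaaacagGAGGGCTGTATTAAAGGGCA
The first had 126 reads in Atm+/+ amplicon 2, of which 9 were free of substitutions, and a median of 4 substitutions per read. It was listed with 1 read each in Atm-/- amplicon 2 and Atm+/- amplicon 4. The second had 96 reads in Atm+/+ amplicon 1, 14 of them without substitutions, and was in no other library. It begins at 33764989, the first base of the left window marked above. The Atm-/- deletion chr1:33764989-33765053 of amplicon 3 begins at the same base. In Atm+/- the deletions with the most reads were chr1:33765242-33765255 (14 bp, 23 reads in amplicon 4) and chr1:33765159-33765192 (34 bp, 21 reads in amplicon 3). Each had a median of 7 substitutions and no read without one, and each ended near the middle of its amplicon. In Atm-/- no deletion of this class had more than 6 reads in a library, and 107 of 143 had a single read.

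The Atm-/- deletions in reads without substitutions gathered in a narrow region. Of the 54, 18 began in the 20-bp window chr1:33764989-33765008 (33.3%, 95% Clopper-Pearson interval 21.1 to 47.5), 23 ended in chr1:33765050-33765069, and 14 did both. Those 14 were 51 to 68 bp long. The 54 are counted once per library and hold 50 different deletions, and some of the repeated ones are among the 14. Here and below the intervals treat repeats in another amplicon as separate deletions. In the other 3 genotypes 2 of 29 began in the left window, 0 ended in the right one and 0 did both. The windows were found from these same Atm-/- deletions, so these counts are a description with no test. The same holds for deletions listed in a library only in reads with substitutions, since some of them are the deletions that set the windows in another amplicon. Among 89 of these in Atm-/-, 13 began in the left window and 5 spanned from one window to the other, 33765002-33765053 in amplicon 1 and 33765000-33765058 in amplicon 3 being such repeats. Among 212 in the other genotypes, 7 began in the left window and 0 spanned both.

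By amplicon, 2 of 14, 5 of 13 and 7 of 16 Atm-/- deletions without substitutions spanned both windows in amplicons 1, 2 and 3. In amplicon 4 it was 0 of 11, but the forward primer of that amplicon covers its first 22 bases, from 33764983, and so most of the left window. With amplicons 1 to 3 alone the share was 14 of 43 (32.6%, interval 19.1 to 48.5), against 0 of 22 in the other genotypes (up to 15.4%). These shares too are a description with no test. The intervals take no account of the choice of windows from the Atm-/- deletions. The left window overlaps the 20 bp beside the middle of amplicon 1, and the right window those of amplicon 2. In amplicon 2, chr1:33765002-33765069 and chr1:33765008-33765066 spanned both windows and also had an end within 20 bp of the middle. Over all rows 19 of 143 Atm-/- deletions spanned both windows and 0 of 241 in the other genotypes (up to 1.52%). All 4 amplicons cover the centre of the stretch and fewer cover its flanks, in every genotype alike.

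**Figure D3:**
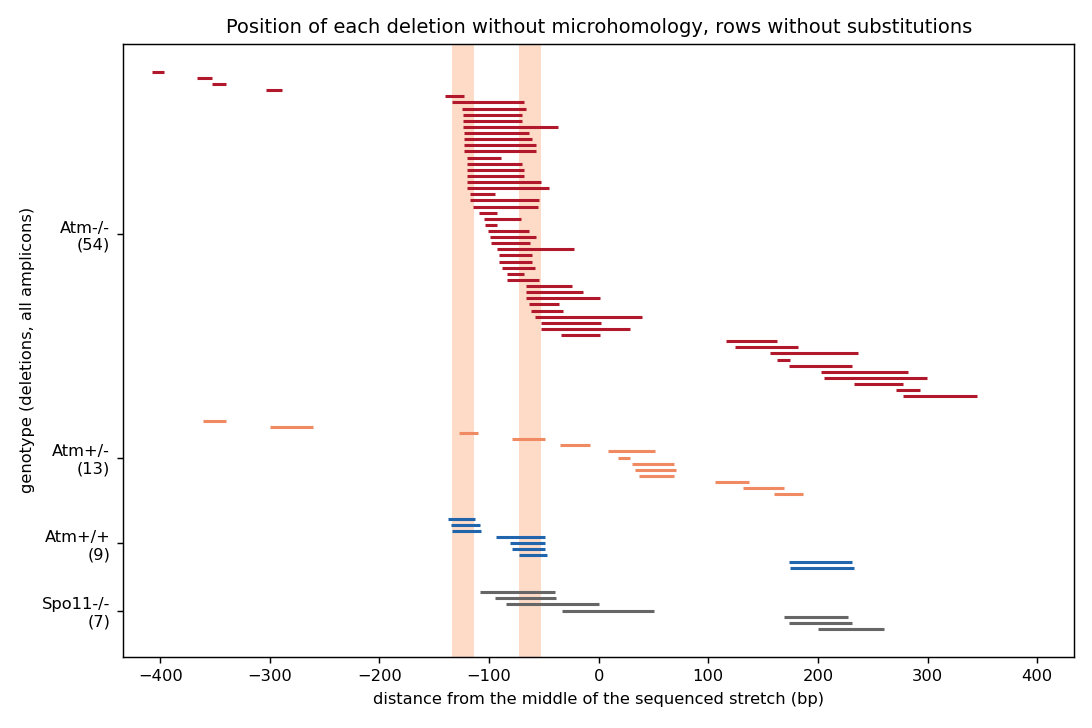
Each line is a deletion of 11 to 99 bp without microhomology in reads without substitutions, drawn from its first to its last deleted base as distance in bp from the middle of the 869-bp stretch (x axis) and grouped by genotype (y axis, number of deletions over the 4 amplicons). Shaded bands are the left and right 20-bp windows. Of the 54 Atm-/- lines 14 run from band to band, and none of the other 29 does.

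Several of these deletions were found again in another PCR of the same genotype. In reads without substitutions, 4 of the 50 different Atm-/- deletions were found in 2 or more amplicons, against 0 of 13, 0 of 9 and 0 of 7 in Atm+/-, Atm+/+ and Spo11-/-. Over all rows it was 8 of 133 in Atm-/-, none of which was listed in another genotype, against 0 of 111, 1 of 112 and 0 of 17. Atm-/- also held the most deletions, and whether it differs in recurrence beyond that was not tested. The deletion chr1:33765002-33765053 (52 bp) had 1, 4 and 6 reads in amplicons 1, 2 and 3, of which 0, 2 and 4 were without substitutions. The 65-bp deletion chr1:33765000-33765064 had 3 reads in amplicon 1 and 2 in amplicon 3, and 2 and 1 of them were without substitutions. The deletions chr1:33764999-33765052 (54 bp, amplicons 1 and 3) and chr1:33765032-33765061 (30 bp, amplicons 1 and 4) had 1 read without substitutions in each. The left ends of the first 3 lie at 33764999, 33765000 and 33765002.

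Other Atm-/- deletions with the most reads without substitutions in their amplicon, and absent from the other genotypes there, shared one of these ends or lay close by. In amplicon 1 the 86-bp deletion chr1:33764999-33765084 had 4 reads, 2 without substitutions. In amplicon 2 the 59-bp deletion chr1:33765000-33765058 had 2 reads, both without substitutions, and it was listed again with 1 read in amplicon 3. In amplicon 3 the 65-bp deletion chr1:33764989-33765053 had 3 reads, 2 without substitutions. In amplicon 4 the 52-bp deletion chr1:33765056-33765107 had 4 reads, 3 without substitutions, and it begins inside the right window. Its junction and that of the 59-bp deletion are shown to compare them with the first set.
chr1:33765056-33765107, 52 bp deleted, 0 bp shared: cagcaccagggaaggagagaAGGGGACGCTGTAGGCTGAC
chr1:33765000-33765058, 59 bp deleted, 1 bp shared: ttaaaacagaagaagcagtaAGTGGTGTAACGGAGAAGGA
Outside this region were the 14-bp deletion chr1:33764756-33764769 in amplicon 1 (3 reads, 2 without substitutions) and the 15-bp deletion chr1:33764819-33764833 in amplicon 2 (2 reads, both without), which starts 2 bp from the forward primer. The 17-bp deletion chr1:33765013-33765029 in amplicon 4 lies between the windows and had 1 read, without substitutions. It is the left-most of several in that amplicon with 1 such read.

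Deletions found in 3 or 4 genotypes formed a separate group of 4, and 3 of them had an end at or near a primer of amplicon 2. The joined product of one is shown up to the end of the amplicon, with the binding site of the reverse primer in capitals.
chr1:33765296-33765353, 58 bp deleted, 0 bp shared: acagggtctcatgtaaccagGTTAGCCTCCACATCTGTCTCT
This deletion stops exactly at the primer site. It was listed in amplicon 2 of all 4 genotypes, with 10 reads in Atm+/+, 3 in Atm+/- and a single read each in Atm-/- and Spo11-/-. The neighbouring chr1:33765297-33765354 (58 bp) had 1, 1 and 3 reads in Atm-/-, Atm+/- and Atm+/+. The deletion chr1:33764820-33764851 (32 bp) starts 3 bp from the forward primer and had 1, 7, 2 and 4 reads in the 4 genotypes, all with substitutions. The fourth is the 31-bp deletion with 126 reads described above. In all, 8 of 143 Atm-/- deletions, 4 of 111 in Atm+/-, 3 of 113 in Atm+/+ and 4 of 17 in Spo11-/- had an end within 5 bp of a primer. In an alternative without them, added once the data had been seen, the log2 difference in reads without substitutions was 3.26 (exact permutation p = 0.00391).

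By length, deletions of 30 to 99 bp and of 11 to 29 bp were both most frequent in Atm-/- in reads without substitutions. For 30 to 99 bp the Atm-/- libraries held 2.22, 2.93, 4.04 and 2.47 per 1e6 reads, and no other library exceeded 1.14. The log2 difference was 3.07, or 8.37-fold, and each of the 4 amplicons had its highest value in Atm-/- (exact permutation p = 0.00391, adjusted p = 0.0677). It was 4.46-fold with at least 2 reads per deletion. For 11 to 29 bp the Atm-/- libraries held 1.66, 1.30, 0.269 and 0.926, and the others up to 0.588, so that Atm-/- amplicon 3 lay within their range. The difference was 2.14, or 4.42-fold, and 3 of 4 amplicons had their highest value in Atm-/- (exact permutation p = 0.00781, adjusted p = 0.0677). With at least 2 reads per deletion it was 0.77 and no longer passed (exact permutation p = 0.0781). Over all rows the longer class differed by 2.46 (exact permutation p = 0.0234, adjusted p = 0.122) and the shorter by 1.91 (exact permutation p = 0.164, adjusted p = 0.328). The first of these did not pass without amplicon 1, 2 or 3, with values of 2.23, 2.74 and 2.44 (exact permutation p = 0.0938, 0.0625 and 0.0781).

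Within the class, lengths of 50 to 69 bp made up 20 of the 54 Atm-/- deletions without substitutions (37.0%, interval 24.3 to 51.3), and 12 of these were 50 to 59 bp. The 14 that spanned both end windows, 51 to 68 bp long, are among the 20, so length and position are not separate traits here. No test was made of this length range, which is a description. In the other 3 genotypes 7 of 29 were 50 to 69 bp long (24.1%, 10.3 to 43.5), none of them in Atm+/-, 2 in Atm+/+ and 5 of the 7 in Spo11-/-. The 2 in Atm+/+ are the deletions at the amplicon 2 primer. Those counted in Spo11-/- also include chr1:33765292-33765349 and chr1:33765296-33765353, 3 and 0 bp from that primer. The latter is among those counted in Atm-/- too. The median length of a library was 33, 58, 59.5 and 37 bp in Atm-/- amplicons 1 to 4, and 21 to 84 bp in the 8 other libraries that held any. These ranges overlapped, and the difference of 1.88 bp missed 0.05 (exact permutation p = 0.84, adjusted p = 0.91).

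**Figure D4:**
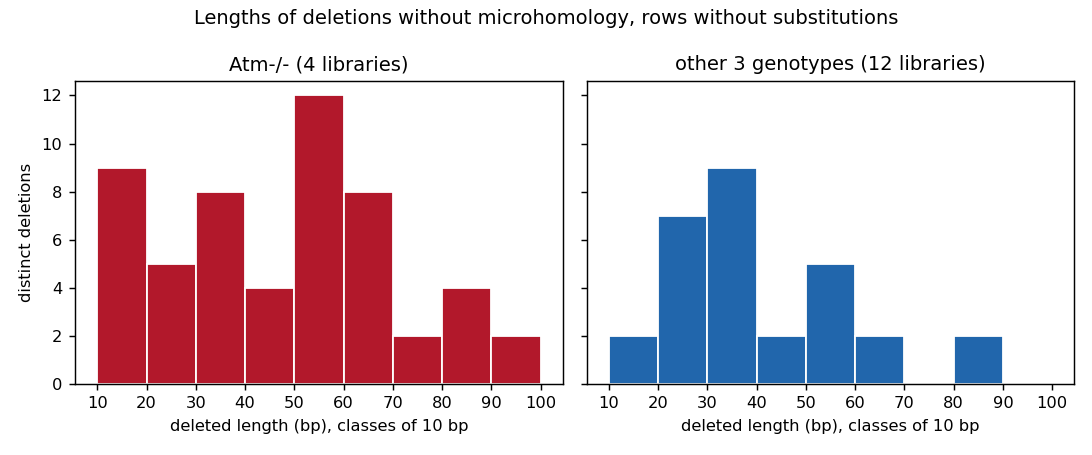
Number of distinct deletions without microhomology (y axis) by deleted length in classes of 10 bp (x axis, first class 11 to 19 bp), in reads without substitutions, for the 4 Atm-/- libraries (left, 54 deletions) and the 12 other libraries (right, 29 deletions). The Atm-/- classes of 50 to 59 and 60 to 69 bp hold 12 and 8 deletions, and those of the other genotypes 5 and 2.

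The limits that define the class cut through sparse counts. Over all rows and genotypes, 14 and 12 deletions with 0 or 1 bp of microhomology were 9 and 10 bp long, just outside, and 16 and 11 were 11 and 12 bp long, just inside. At the upper limit 2 were 98 bp, 0 were 99 bp and 0 were 100 bp long. Beside the 146 deletions of 11 to 99 bp with 1 bp of microhomology, 68 had 2 bp and 92 had 3 bp or more. In reads without substitutions 28 Atm-/- deletions shared 0 bp, 26 shared 1 bp and 16 shared 2 bp. The percent with 0 bp among those with 0 or 1 bp was 42.9, 38.5, 56.3 and 72.7 in Atm-/- amplicons 1 to 4, and 0 to 75.0 in the 8 other libraries that held any. The difference of 0.64 percentage points missed 0.05 (exact permutation p = 0.951, adjusted p = 0.989). Of all pairs of ends 11 to 99 bp apart that each amplicon offers, 66.2% to 66.5% of those sharing 0 or 1 bp share 0 bp.

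The class was then set beside deletions of the same length that do have microhomology, of 2 bp or more. Among reads without substitutions, 54 of 88 Atm-/- deletions of 11 to 99 bp were without microhomology (61.4%, 95% Clopper-Pearson interval 50.4 to 71.6), against 13 of 29 in Atm+/-, 9 of 19 in Atm+/+ and 7 of 17 in Spo11-/-, together 29 of 65 (44.6%, 32.3 to 57.5). Of the pairs of ends that the amplicons offer, 82.5% to 83.4% share 0 or 1 bp. The mean log2 ratio of deletions without to deletions with microhomology was 0.64 ± 0.23 in Atm-/- (SD, n = 4) and -0.63 ± 0.98 in the other 12 libraries. The ratio was 2.41-fold higher in Atm-/- (log2 1.27), and Atm-/- ranked first within each of the 4 amplicons (p = 0.0312 by the exact permutation test, adjusted p = 0.135). The call did not hold without amplicon 2, 3 or 4, with differences of 1.24, 1.16 and 1.25 (exact permutation p = 0.0781 each). Over all rows the ratio differed by 0.51 (exact permutation p = 0.508), and the pooled shares were 68.4% in Atm-/- and 71.9% in the others.

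The same comparison with longer deletions without microhomology, of 100 bp or more, gave another result in each set of rows. In reads without substitutions Atm-/- held 37 of these longer deletions, or 2.75 ± 0.80 per 1e6 reads, and the other genotypes 10, or 0.226 ± 0.232 (SD, n = 12). The log2 ratio of the shorter to the longer ones differed by -0.27 between Atm-/- and the others (exact permutation p = 0.812). Over all rows Atm-/- held 188 of the longer deletions against 26 in the others, and the ratio differed by -2.38 (exact permutation p = 0.0469, adjusted p = 0.174). That value missed 0.05 in several alternatives, and once deletions ending near the amplicon's middle were left out it turned to 0.89 (exact permutation p = 0.273).

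**Figure D5:**
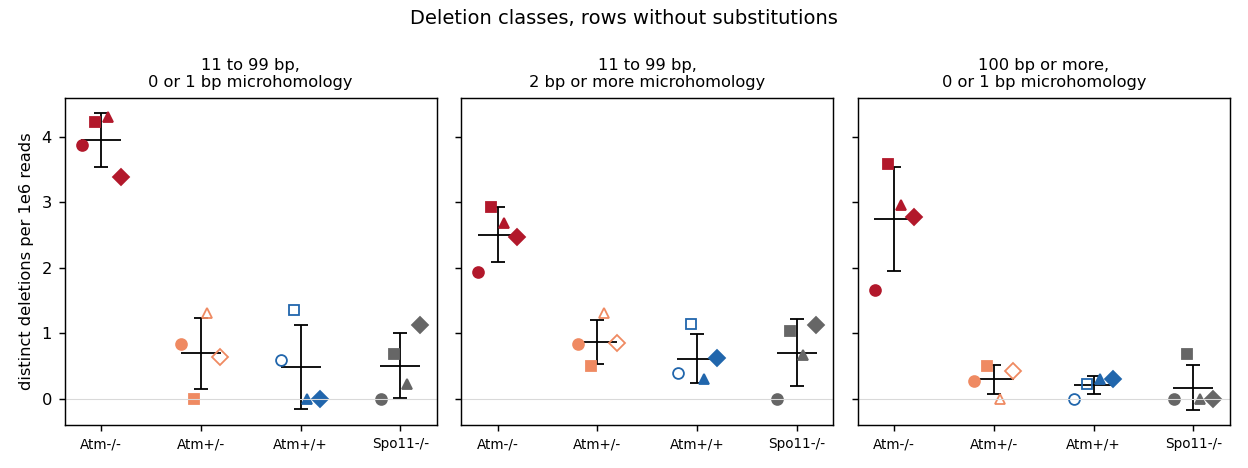
Distinct deletions in reads without substitutions, per 1e6 reads of the whole library (y axis), by genotype (x axis) for 3 classes. These are 11 to 99 bp without microhomology, 11 to 99 bp with 2 bp or more, and 100 bp or more without. Each point is a library, its shape gives the amplicon, open points belong to the second set, and bars are mean ± SD (n = 4). The Atm-/- means are 3.95, 2.51 and 2.75, and those of the other genotypes lie between 0.172 and 0.872.

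A further question was whether animals that make breaks and have ATM carry more of these deletions than animals without SPO11. In reads without substitutions the 4 Spo11-/- libraries and the 8 Atm+/+ and Atm+/- libraries did not differ beyond their spread: on the log2 scale Spo11-/- stood 0.0015 above the others (p = 1 by the exact permutation test). In single amplicons it ran from -2.45 to 1.90. It was 1.08, or 2.11-fold, without the second set (exact permutation p = 0.375) or with the set as a block (exact permutation p = 0.346), and -0.63 without amplicon 4, so its size and direction were not settled. Over all rows the difference was -1.27 (exact permutation p = 0.321), and blocking also on the set turned it to 0.54 (exact permutation p = 0.103). The 7 Spo11-/- deletions without substitutions were 56 to 85 bp long. Of the 4 in amplicon 4, 3 overlap the region of the Atm-/- deletions, chr1:33765014-33765082 (69 bp) and chr1:33765028-33765083 (56 bp) among them, but none begins in the left window, most of which lies under the forward primer of that amplicon. The Spo11-/- deletion with the most reads besides the one near the amplicon 2 primer was chr1:33765089-33765172 (84 bp), with 2 reads in amplicon 3.

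Loss of 1 copy of Atm was compared with none. Atm+/- stood 0.61 above Atm+/+ on the log2 scale when substitutions were barred and 0.82 above it over all rows (exact permutation p = 0.75 for both), and an exact test on 4 pairs cannot pass 0.05. In single amplicons it ran from -3.58 to 3.24 in the first case. The 13 Atm+/- deletions without substitutions included chr1:33764762-33764782 (21 bp) and chr1:33764823-33764861 (39 bp), with 1 read each in amplicon 1. Neither these nor the 9 of Atm+/+ spanned the windows used by the Atm-/- deletions.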

How the data were processed

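Amplicon libraries of testis DNA from 4 genotypes (16 libraries) were analysed from the deposited tables of aligned sequences with 1 deletion each. Deposited counts are raw reads per distinct aligned sequence. A percent of the library's reads was also deposited for each sequence, and dividing reads by it gave the depth. The same depth was used for both sets of rows. Columns are laid out as CRISPResso writes them, per the file headers, but its version and settings are not stated there. The submitters' processing notes name the build mm10. Of 73567 rows, 25 whose alignment was longer than the amplicon were left out, 15 of them with 11 to 99 deleted bases. The sequence was rebuilt from the commonest base at each position over the rows (at least 93.3% of determined bases more than 20 bp from the ends), and both primers matched it in all 4 amplicons. Each deletion was moved to its left-most placement. The number of positions it could shift was its microhomology, and equal start and length in a library made 1 deletion.

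Rates used a pseudocount of 0.5. Amplicon was the block in every test because the design pairs the genotypes by amplicon, and 26 exact permutation tests were adjusted together. The class, the lists and the tests were chosen with earlier results of these data known. Deletions named are those found in several Atm-/- amplicons without substitutions, the 2 per amplicon with the most such reads found in Atm-/- alone, the 2 with the most reads of each other genotype in either set of rows, and those in 3 or more genotypes. Ties in reads went to the left-most start, then to the shorter deletion. All Atm+/- and Spo11-/- deletions without substitutions tied at 1 such read. Alternatives were fewer amplicons, other read, base and microhomology filters, another pseudocount, the set and no block. Code was tested on simulated data with known answers. Python 3.11.15, NumPy 2.4.6, SciPy 1.17.1 and Matplotlib 3.10.9 were used.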

Additional observations from a re-analysis of the deposited data

Results flagged for a closer look

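In Atm-/-, amplicon 4 stood apart from the other 3 libraries in reads with a deletion without microhomology, at 8.95 per 1e6 reads over all rows against 16.4 to 17.6. In Atm+/-, amplicon 2 stood apart in the percent of deletions with 0 bp of microhomology, at 71.4% of 7 deletions over all rows against 59.5% to 60%. Among 24 groups of 4 libraries tested these 2 were singled out, and chance singles out about 1 in 20 groups.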

How the results depend on the processing

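Of 359 values recomputed for 26 results, 331 kept their direction and 296 also their side of 0.05. Values are log2 differences unless a unit is given, each p is from the exact permutation test, and the cause of a change was not tested. The rate of Atm-/- against the other 3 genotypes in reads without substitutions kept direction and call in each alternative, at 2.17 (at least 2 reads per deletion) to 3.62 (without the second set).

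Without the pairing by amplicon (no replicate block), the rate over all rows passed at 2.18 (p = 0.044), as did Atm-/- against Spo11-/- over all rows at 3.03, and against Atm+/-, Atm+/+ and Spo11-/- without substitutions at 2.78, 3.39 and 3.08 (exact permutation p = 0.0286 each). The block changed no other call.

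Over all rows, leaving out ends near the middle gave 2.75 for the rate, 2.93 for reads and 2.73 for 11 to 29 bp (exact permutation p = 0.00391 each), leaving out the second set 3.30, 3.55 and 3.23 (p = 0.0123 each), and at most 2 substitutions 2.5, 2.32 and 1.98 (p = 0.00391, 0.0469 and 0.0469). The ratio to deletions with microhomology turned to -0.082 without deletions shared by genotypes. The ratio to longer deletions no longer passed at -0.78 (undetermined bases left out), -2.19 (0 bp alone), -2.34 (shared deletions left out), -2.20 (pseudocount 1), -2.36 (primer ends left out), -1.27 (second set left out) and -0.62 (at most 2 substitutions), and turned to 0.89 without ends near the middle. Spo11-/- against Atm+/+ and Atm+/- turned to 0.16 without those ends and to 0.54 without the second set or with the set as a block.

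In reads without substitutions, at least 2 reads per deletion gave 0.77 for 11 to 29 bp and 0.90 for the ratio to deletions with microhomology, both no longer passing, and turned the percent with 0 bp to -25 points, Spo11-/- against Atm+/+ and Atm+/- to -0.41 and Atm+/- against Atm+/+ to -1.43. That ratio also failed at 0.86 (0 bp alone) and 0.63 (shared deletions left out). The ratio to longer deletions turned to 0.77 without ends near the middle, 0.49 without the second set and 0.91 without both, and the median length to -0.31, -10.0 and -10.9 bp. The Spo11-/- comparison turned to -0.24 (0 bp alone), -0.071 (shared deletions left out), -0.013 (pseudocount 1) and -0.51 (primer ends left out), and was 0.77 without ends near the middle and 1.08 without the second set or with the set as a block.

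With each amplicon left out in turn, values over all rows ran from 2.23 to 2.74 for 30 to 99 bp, -2.52 to -2.25 for the ratio to longer deletions, -4.11 to 12.1 points for the percent with 0 bp and -0.44 to 2.08 for Atm+/- against Atm+/+. Without substitutions they ran from 1.16 to 1.43 for the ratio to deletions with microhomology, -0.75 to 6.08 bp for the median length, -8.37 to 8.79 points for the percent with 0 bp, -0.63 to 0.82 for Spo11-/- and -0.27 to 2.00 for Atm+/- against Atm+/+.

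Atm+/- against Atm+/+ without the second set could not be run, since no amplicon keeps both. The 0 bp setting has no value for the percent with 0 bp, nor the pseudocount for medians and percents. With 0 to 7 deletions in each library of the other genotypes without substitutions, counting error limits those values. Where at least 2 reads were asked for in these rows, Atm+/- and Spo11-/- held none, so their side of a value rests on the added pseudocount. Without the second set the same holds for Atm+/+.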

Other observations

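Rows whose alignment was longer than the amplicon took no part in the comparisons. Atm+/+ libraries had 15 of them, Atm-/- and Atm+/- libraries 4 each and Spo11-/- libraries 2. Among these 11, 1, 1 and 2, in the same order, had 11 to 99 deleted bases. Those of Atm+/+ all came from amplicons 1 and 2, with 7 and 8 rows, which belong to the second set. The Atm+/- libraries of that set, amplicons 3 and 4, had 0. The origin of these longer rows was not tested.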
